A study of Mus musculus with 2 samples.

Results

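Bipotential-type granulosa cells, the supporting cells taken to surround the oocytes in the first follicles of the ovary, were described in 2 single-cell libraries of mouse pup ovaries. The cells were chosen by their measured transcripts, so the genes of the rule describe them and are not findings. A barcode was a member with at least 5 UMIs (unique molecular identifiers) of Fst, Hsd3b1, Inha and Aard together per 10000 of its own UMIs and at least 5000 UMIs in all. Barcodes reaching 2 per 10000 of the surface genes Upk3b, Upk1b and Krt7 were left out, as were those reaching 10 of the germ genes Dazl, Sycp3 and Figla or 10 of the MHC class II genes Cd74, H2-Aa, H2-Ab1 and H2-Eb1. Of 10096 barcodes in all, 871 were members, 356 in the library labelled DEHP_MLT and 515 in the library labelled MLT.

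The pups were C57BL mice at postnatal day 3, and each group was 1 library of the 10x Genomics 3′ assay. Mothers of the DEHP_MLT group were gavaged with DEHP, a phthalate plasticizer, and given melatonin from E16.5 until postnatal day 3. Mothers of the MLT group were given DMSO instead of DEHP together with the same melatonin, so every library here carries melatonin. The sources used here do not give the number of pups or ovaries per library. The sample titles were followed for the group names, but the count table attached to each sample carries the other group's name, and if the table names were right, all group directions given here turn round. With 1 library per group there was no replicate and no test. All intervals are 95% intervals that cover counting error only.

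In the mouse, granulosa cells arise in more than 1 wave. Bipotential pregranulosa cells appear early in the fetal gonad and mostly support the medullary follicles that start to grow right after birth, whereas epithelial pregranulosa cells enter later from the surface epithelium, pass through an Lgr5 stage and mostly build the cortical primordial reserve. Granulosa cells depend on the transcription factor Foxl2, feed the oocyte with Kit ligand, and make the inhibin subunits and follistatin, which restrain activin. Anti-Müllerian hormone, FSH receptor and aromatase follow as follicles grow.

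In total there were 117355739 UMIs over 4819 barcodes in DEHP_MLT and 80657690 UMIs over 5277 barcodes in MLT. All 4819 and 4367 of these reached 5000 UMIs, the lowest totals being 6923 in DEHP_MLT and 2031 in MLT. The libraries shared 4 cell barcodes, carried by 0 members in DEHP_MLT and 2 in MLT. Haemoglobin transcripts differed widely between the libraries in the members, as given below. No doublet caller was run, and the members must be taken to contain doublets.

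Members made up 7.39% of the barcodes with 5000 or more UMIs in DEHP_MLT (356 of 4819, exact Clopper-Pearson interval 6.66% to 8.16%) and 11.8% in MLT (515 of 4367, 10.9% to 12.8%). The share was lower in DEHP_MLT beyond counting error. Germ barcodes were 14.5% in DEHP_MLT and 3.25% in MLT, erythroid barcodes 14.4% and 1.14%, so the denominators were made up differently. With erythroid barcodes left out of both, the members were 8.26% in DEHP_MLT and 11.8% in MLT. How tissue was dissociated and loaded can also set such shares, and its part was not tested.

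**Figure D1:**
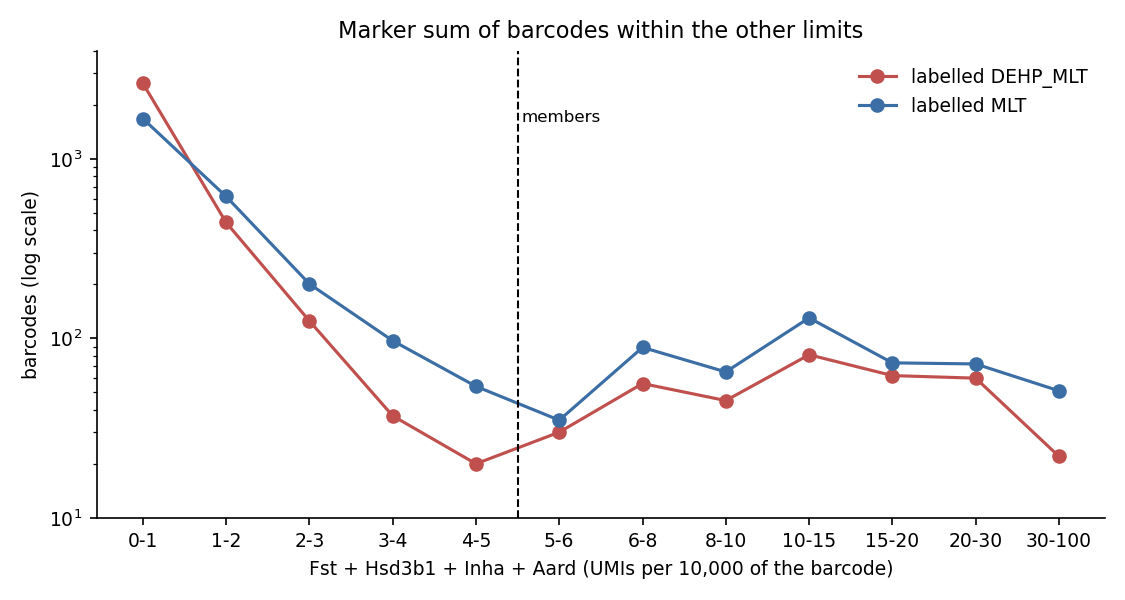
Number of barcodes (log axis) by the summed Fst, Hsd3b1, Inha and Aard UMIs per 10000 of the barcode, among barcodes within the other limits, for the libraries labelled DEHP_MLT and MLT. The dashed line is the threshold of 5, and most barcodes lay below 1. Between 4 and 5 lay 20 barcodes in DEHP_MLT and 54 in MLT, and between 5 and 6 lay 30 and 35. Among the bins up to 6, the sparsest was thus just outside the threshold in DEHP_MLT and just inside it in MLT. The bins widen to the right, which raises their counts, so no gap between groups is read.

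The members' marker sum had a median of 12.4 UMIs per 10000 in both libraries and ran from 5.06 to 64.7 in DEHP_MLT and from 5.01 to 93.5 in MLT. All 4 rule genes were detected in 64.9% of members in DEHP_MLT and 61.7% in MLT, and 2 and 1 members held UMIs of a single one of them. Of the members, 116 in DEHP_MLT and 167 in MLT reached the threshold with Fst alone, and 97 and 148 with Inha alone. Follistatin (Fst) stood at 402 CPM (UMIs per 1000000 UMIs of the summed members) in DEHP_MLT and 456 CPM in MLT. Inhibin alpha (Inha) stood at 393 and 469 CPM, and Hsd3b1, a steroid dehydrogenase and isomerase, at 298 and 405 CPM. Aard, an alanine- and arginine-rich gene of unsettled function, stood at 264 and 291 CPM. Barcodes at the edge differed from the bulk of the members. Just inside the threshold, Gng13 stood at 610 CPM in DEHP_MLT and 298 CPM in MLT and Nr5a2 at 37.9 and 32.1 CPM. Just outside it, Gng13 stood at 396 and 252 CPM and Nr5a2 at 11.7 and 16.1 CPM.

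The granulosa part of the name given to these cells was checked on genes that the rule did not use. The bipotential part was not checked here. Foxl2 had 542 CPM in the members of DEHP_MLT (528 to 557) and 486 CPM in those of MLT (475 to 498), and was detected in 97.5% and 95.1% of them. Nr5a2, an orphan nuclear receptor that granulosa cells need for ovulation, had 113 CPM (107 to 120) and 119 CPM (113 to 125). After every barcode was thinned to 5000 UMIs, Nr5a2 was found in 33.1% of members in DEHP_MLT and 34.8% in MLT, against 5.94% and 6.67% of endothelial barcodes, which should lack Foxl2 and serve as a background here. Unthinned, the same shares were 63.2% and 59.2% of members, with median depths of 20967.5 and 16519 UMIs, and 23.8% and 28.6% of endothelial barcodes, with 19941 and 26428 UMIs. Stroma barcodes held Foxl2 at 154 and 184 CPM and Nr5a2 at 2.57 and 5.75 CPM, so Nr5a2 divided the classes more sharply. Unthinned, Foxl2 was found in 73.7% of stroma barcodes in DEHP_MLT and 77.1% in MLT. Both are genes of granulosa cells. Genes of the epithelial type were also present: unthinned, Gng13 was found in 61.8% and 59.0% of members and Lgr5 in 26.1% and 25.8%. That the cells lay in first follicles of the medulla cannot be read from dissociated cells, and genes of later growth were near 0. Fshr, the FSH receptor, stood at 0.764 CPM in DEHP_MLT and 1.75 CPM in MLT, and aromatase (Cyp19a1) at 2.67 and 3.05 CPM.

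**Figure D2:**
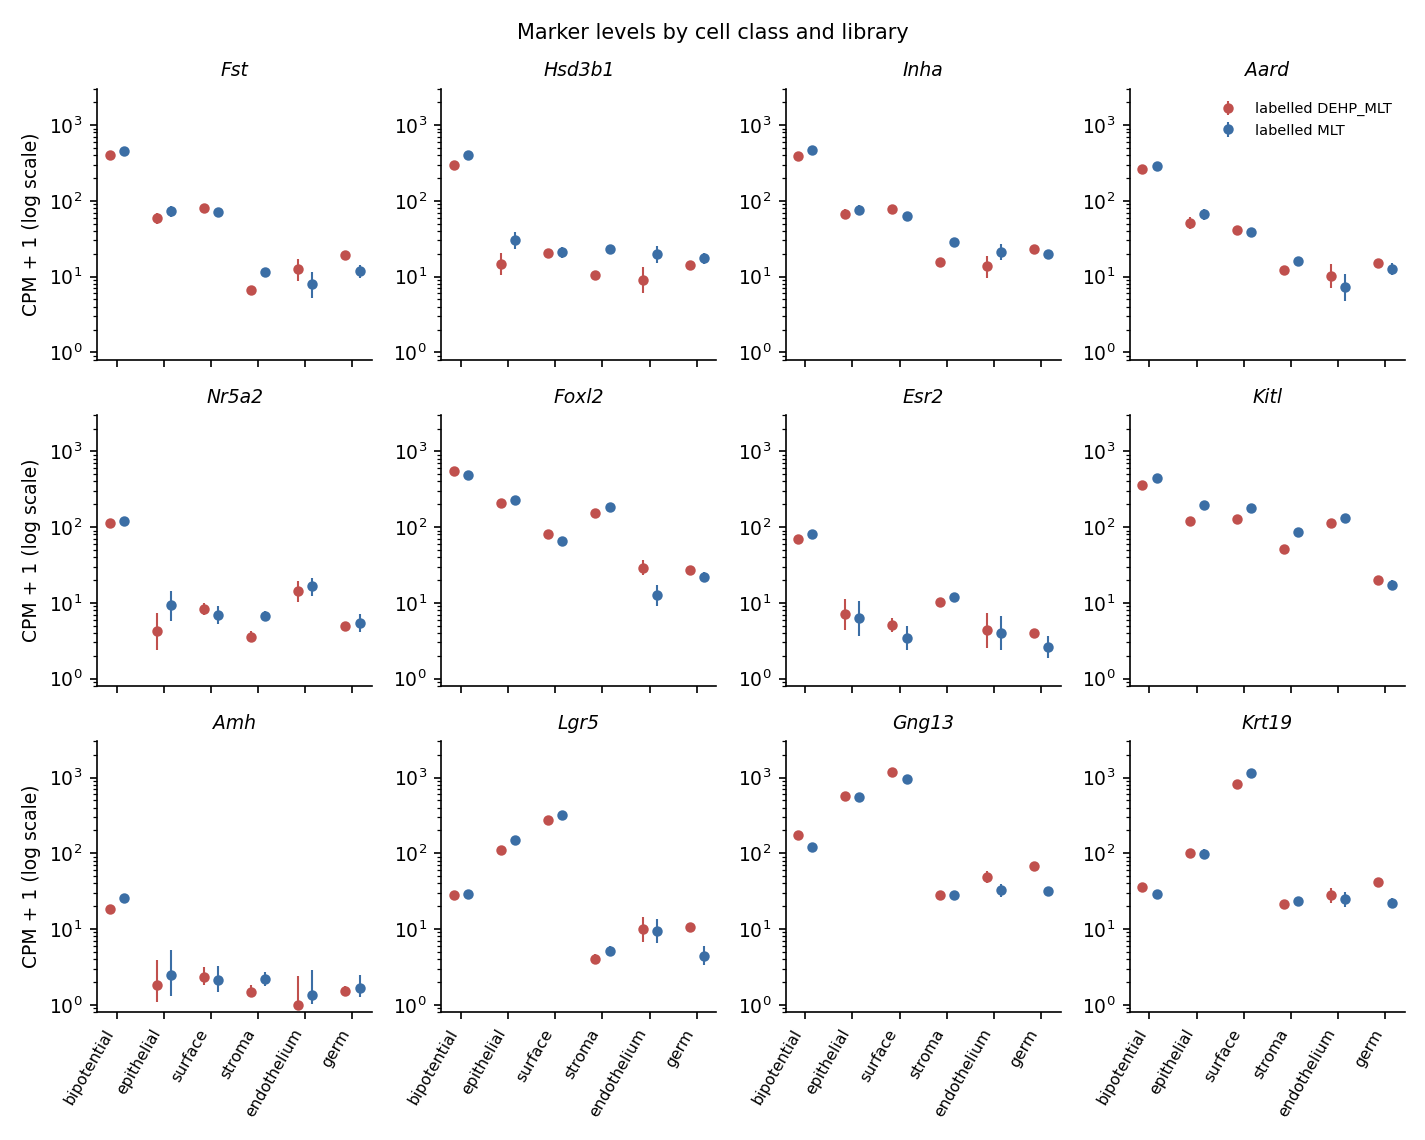
Level of 12 genes (CPM plus 1, log axis) in the summed barcodes of 6 cell classes, labelled DEHP_MLT (left point) and MLT (right point), with exact Poisson 95% intervals. Nr5a2, Esr2 and Amh stood highest in the bipotential-type cells, Lgr5 and Gng13 in the surface epithelium and then the epithelial pregranulosa cells; Fst, Hsd3b1, Inha and Aard are rule genes.

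Markers of other cell types were low in the members, but not absent. The 9 stroma markers summed to 613 CPM in the members of DEHP_MLT and 777 CPM in those of MLT, against 8950 and 8667 CPM in stroma and 344 and 294 CPM in endothelium. The 12 germ cell markers summed to 433 and 522 CPM, against 6329 and 6231 CPM in germ barcodes and 309 and 329 CPM in stroma. The 7 endothelial markers summed to 40.0 and 54.8 CPM, the 7 leukocyte markers to 31.6 and 28.0 CPM, and the 7 perivascular markers to 100.3 and 85.2 CPM. The 7 surface epithelium markers summed to 206 and 224 CPM, against 2541 and 3552 CPM in surface epithelium, and the 6 neutrophil markers to 293 and 21.1 CPM. Erythroid markers, 6 in all, summed to 15036 CPM in DEHP_MLT and 1960 CPM in MLT, with Slc4a1 at 0 in MLT. Hba-a1 was found in 100% of members in DEHP_MLT and 77.9% in MLT, a like share in DEHP_MLT to that of the endothelium. Of the 6 steroidogenic theca or Leydig-type markers in the tables, all were detected, and their sum was 16.6 CPM in DEHP_MLT and 24.1 CPM in MLT. Cyp17a1, which defines androgen-making cells, stood there at 1.53 and 0.992 CPM.

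Epithelial pregranulosa cells were the nearest class for comparison. They were the 124 barcodes in DEHP_MLT and 120 in MLT that met the same limits on other genes, had a marker sum below 5, and reached 2 per 10000 of Lgr5 and Gng13 together. The marker sum and the Lgr5 and Gng13 levels were thus set by the rules. At 50 CPM or more in a class of each library, a gene was called apart where the levels differed at least 1.5-fold after adding 1 CPM and the Poisson intervals did not overlap, in the same direction in both libraries. Of 3322 such genes, 260 were higher in the bipotential-type cells, 7.83%, and 162 were lower, 4.88%. These counts describe classes cut from the same values, and nothing was tested. The comparison class was less pure than the members: 59 of 124 and 41 of 120 of its barcodes carried markers of stroma, endothelium, red cells or leukocytes at a fixed level, against 26 of 356 and 28 of 515 members. With those barcodes left out of both classes, an alternative added after the data were seen, 247 genes were higher and 176 lower.

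Nr5a2 and Esr2 separated the classes most widely among transcription factors. Nr5a2 stood at 113 and 119 CPM in the bipotential-type cells of DEHP_MLT and MLT, against 3.27 and 8.22 CPM in the epithelial cells, a log2 ratio of 4.74 in DEHP_MLT and 3.71 in MLT. Esr2, the estrogen receptor beta of granulosa cells, stood at 68.2 and 79.8 CPM, against 6.12 and 5.32 CPM, with log2 ratios of 3.28 and 3.68. Foxl2 and Foxo1 were also higher, Foxl2 at log2 ratios of 1.39 and 1.08 and Foxo1 at 1.12 and 1.03, and so was Emx2 at 0.84 and 0.70. The homeobox gene Irx3 was lower at -0.98 and -1.03, and Nr2f2, a nuclear receptor of gonadal interstitium, at -0.99 and -1.04. Of the 14 genes of this list at 50 CPM or more, 5 were higher and 2 lower, beside 7.83% and 4.88% of all genes. The gonadal factors Wt1, Gata4 and Nr5a1 differed less than 1.5-fold between the classes in both libraries.

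The other genes at the top of the ranking were of mixed kind. Col8a1, a short-chain collagen, had log2 ratios of 5.19 in DEHP_MLT and 3.96 in MLT. Slc18a2, the vesicular monoamine transporter, stood at 152 and 157 CPM in the members, against 6.12 and 14.0 CPM in the epithelial cells, a log2 ratio of 4.42 and 3.40. Bmp4, a bone morphogenetic protein, stood at 82.1 and 84.6 CPM, against 2.86 and 10.2 CPM. Fam13a (3.54 and 3.30), the guidance factor Sema3c (3.67 and 3.20), the anion exchanger Slc26a7 (3.26 and 3.02), the ankyrin Ank2 (3.52 and 2.98) and the secreted factor Metrnl (2.98 and 3.01) completed the 10 highest log2 ratios. Lowest were Ly6d at -3.02 and -2.95, Eln, which encodes elastin, at -2.01 and -2.20, Rhox8 at -1.96 and -1.93, and Lgr5, which the rule of the epithelial class used. Ngp, Stfa1, Cstdc5, S100a9 and Stfa2, genes of neutrophils, and Sparcl1 also ranked among the 10 lowest. None of these 6 was apart once barcodes with markers of other types were left out, or when the epithelial class had to reach 4 per 10000 of Lgr5 and Gng13. Col8a1 was not apart under the first of these either, but at 50.3 CPM in the members of DEHP_MLT it stood close to the 50 CPM floor. Under the second it was apart, at log2 ratios of 5.68 in DEHP_MLT and 4.10 in MLT.

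Signalling genes differed by role. The list counts in this paragraph stand beside 7.83% of all genes higher and 4.88% lower. Among ligands and subunits of the activin family, Inhbb, the beta B subunit, stood at 118 CPM in the members of DEHP_MLT and 110 CPM in those of MLT, against 16.3 and 24.2 CPM in epithelial cells (log2 ratios of 2.78 and 2.14). Smad3, which carries the activin signal, was higher at 1.42 and 1.04, while Amhr2, the AMH receptor, had ratios of 0.18 and -0.14. Of 7 genes of that list at 50 CPM, 4 were higher, including the rule genes Inha and Fst, and none was lower. Kit ligand (Kitl), read by the oocyte's Kit receptor, stood at 358 and 441 CPM, against 119 and 195 CPM, with log2 ratios of 1.58 and 1.17. Gja1, the connexin 43 gap junction gene, had ratios of 1.997 and 2.07. In the BMP list Bmp4 and the receptor Bmpr2 (0.91 and 0.95) were higher and Id2, a BMP-induced inhibitor of differentiation, was lower (-1.17 and -1.40), out of 7 genes. In the Wnt list of 11, the receptor Fzd3 and the effector Tcf7l2 were higher and Lgr5, fixed by the rule, lower, and Wnt4 (-0.38 and -0.43) and Rspo1 (-0.26 and -0.72) were not apart in both libraries.

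Growth and matrix genes split as well, and their list counts stand beside the same shares of all genes, 7.83% higher and 4.88% lower. Ccnd2, the granulosa D-type cyclin, stood at 1462 CPM in DEHP_MLT and 1867 CPM in MLT, against 674 and 962 CPM in epithelial cells, while Ccnd1 was lower at log2 ratios of -1.79 and -2.02. Of 10 imprinted growth genes at 50 CPM, Plagl1 and Nnat were higher and H19, Igf2, Meg3, Dlk1 and Mest lower, H19 at -1.60 and -1.998. Stroma held the imprinted list at 4914 CPM in DEHP_MLT and 4033 CPM in MLT, against 1791 and 1991 CPM in the members. Stroma markers were carried by 33 of 124 and 33 of 120 epithelial barcodes. The part of stroma RNA in the imprinted and IGF differences was not tested. Of 9 genes of the IGF system, the receptor Igf1r was higher (0.81 and 0.69) and Igf2, Igfbp4, Igfbp6 and Igfbp7 lower, and the last is abundant in endothelium and stroma. The laminin receptor genes Itga6 (1.36 and 1.05) and Dag1 (0.97 and 0.85) and the laminin Lama1 (1.01 and 0.81) were higher, and Hspg2, the perlecan gene, was lower, out of 10. Of 12 genes listed for epithelial pregranulosa cells, 7 were lower, of which Lgr5 and Gng13 were fixed by the rule of the epithelial class. The others included the keratins Krt8 (-1.48 and -1.43), Krt18 (-1.61 and -1.85) and Krt19 (-1.50 and -1.79), and Aldh1a2, a retinoic acid enzyme (-1.07 and -1.46). In steroidogenesis, Akr1c14 (2.57 and 1.91) was higher and Tspo lower, out of 5, and Hsd3b1 was higher by the rule of the members. Star, which moves cholesterol into mitochondria, stood at 6.97 and 13.6 CPM in the members, and Cyp11a1, the side-chain cleavage enzyme, at 1.34 and 1.53 CPM.

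A bare promoter search was made for CAAGGNCA, letters that NR5A receptors bind, on either strand in 250 bases before to 50 after each RefSeq start on GRCm38.p6. Of the 4 markers, 3 matched the table with 4 promoters, and 0 of these held the letters. They occurred in 3.87% of 284 promoters of the genes that were higher, 1.79% of 168 of those that were lower, 4.45% of promoters of all tested genes, and 6.71% of 32851 promoters in the table. Of the 10 highest genes 9 matched the table, and of these only Slc18a2 held them, at chr19:59260628-59260927 on the plus strand. Its window is shown because it is the only match among those 9, with the match in capitals, read on the minus strand.
Slc18a2: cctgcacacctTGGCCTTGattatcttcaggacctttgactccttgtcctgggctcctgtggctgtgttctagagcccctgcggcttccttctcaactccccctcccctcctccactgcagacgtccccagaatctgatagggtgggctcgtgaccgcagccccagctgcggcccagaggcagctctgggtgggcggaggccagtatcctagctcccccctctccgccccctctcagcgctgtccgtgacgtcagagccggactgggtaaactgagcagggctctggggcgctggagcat
The match is a description of letters and not a site.

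Across the members of 1 library, genes were ranked by how closely their count followed the marker sum, after thinning each member to 5000 UMIs. Over 5907 genes the 8 with the highest Spearman rho, taken as the smaller of the values in the 2 libraries, were Tenm4, Map1b, Ccnd2, St3gal5, Akr1cl, Clu, Slc18a2 and Ctsl. Tenm4, a teneurin, had a rho of 0.34 over the 356 members in DEHP_MLT and 0.43 over the 515 in MLT. Ccnd2 had 0.33 and 0.38, and Slc18a2 0.32 and 0.29. The members of a library share its chemistry and free RNA, so these values are a description of cells and not of replicates. All 8 values were weak.

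Anti-Müllerian hormone was found in a minority of members. Amh stood at 17.3 CPM in DEHP_MLT (14.9 to 19.99) and 24.5 CPM in MLT (21.9 to 27.3), against 0.817 and 1.45 CPM in epithelial cells. Any Amh UMI was found in 98 members in DEHP_MLT (27.5%) and 150 in MLT (29.1%), against 4.06% and 3.48% of surface epithelium barcodes, with median depths of 24884.5 and 21916.5 UMIs, and 0.00% and 0.952% of endothelial barcodes. After thinning, the shares were 7.58% and 9.13% of members and 0.806% and 0.833% of epithelial pregranulosa barcodes. A narrower subset was taken by level. At least 1 Amh UMI per 10000 was found in 16 of 356 members in DEHP_MLT (4.49%, 2.59% to 7.20%) and 35 of 515 in MLT (6.80%, 4.78% to 9.33%), with overlapping intervals. Set against the other members, 44 of 3389 genes were higher in the Amh subset of both libraries, 1.3%, and 30 were lower, 0.885%. Amh itself was used to split the cells, and Inha, Hsd3b1 and Fst are genes of the member rule. A barcode of 10000 or fewer UMIs enters the subset with 1 Amh UMI. The intervals leave out spread between cells, so with 16 and 35 members a few cells can set a level. Inha stood at 1417 CPM in the Amh subset of DEHP_MLT, against 357 CPM in its other members, and at 970 CPM in that of MLT, against 435 CPM. Hsd3b1 stood at 817 CPM, against 280 CPM, in DEHP_MLT and at 905 CPM, against 371 CPM, in MLT. Nr5a2 was higher at log2 ratios of 0.88 and 0.89, Inhbb at 0.94 and 0.74, Slc18a2 at 1.14 and 0.81, and Top2a, a gene of dividing cells, at 0.97 and 0.65. Other genes of dividing cells were mixed: Tpx2 had 1.11 and 0.84, Mki67 1.34 and 0.09, and Cenpf 0.82 and -0.05. None of them was apart in both libraries, and no division is read from Top2a. Aldh1a2 (-2.22 and -1.70), Irx3 (-2.24 and -1.38), H19 (-1.18 and -0.80), the Notch target Hes1 (-0.75 and -1.09) and the collagen IV gene Col4a1 (-1.40 and -0.92) were lower. Fst was not apart, at 328 CPM, against 405 CPM, in DEHP_MLT and 496 CPM, against 454 CPM, in MLT.

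A related class existed in 1 library only. In MLT, 111 barcodes met the marker rule but exceeded the MHC class II limit, while in DEHP_MLT there were 0 of 4819, which, at 3 counts for a count of 0, allows a share of up to 0.0623%. Members and these cells shared Foxl2 at 486 CPM in members and 582 CPM in the MHC class II-high cells, and Nr5a2 at 119 and 97.5 CPM. Of 3819 genes, 39 were higher in the members, 1.02%, and 149 were lower, 3.9%. The interferon-induced genes Ifit1 (9.69 CPM in members, 268 CPM in the MHC class II-high cells), Ifit3 (15.8 and 342 CPM) and Gbp3 (7.63 and 175 CPM) were lower, as were Ciita, the class II master regulator (3.74 and 84.9 CPM), and H2-DMb1. The neutrophil genes S100a8 (8.16 and 178 CPM) and S100a9 (10.6 and 200 CPM) were lower too. Higher in the members were Col9a2 (104 and 43.9 CPM), Chp2 (140 and 61.0 CPM), Hist1h2ap, Nrn1, Ly6g6e and Mycl. Since the rule divided the classes by MHC class II genes, the direction of genes that go with them was fixed in part by the choice.

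Between the libraries, genes of protein folding and MHC class I were lower in the members of DEHP_MLT, and Id2, Id3, Mt1, Mt2 and Gpx1 were higher. Of the 3636 genes that reached 50 CPM in either library, 29 were higher in DEHP_MLT, 0.798%, and 309 were lower, 8.5%. The split depends on the scaling. The median log2 ratio over all 9416 genes at 10 CPM or more was -0.16. Ribosomal protein genes took 23.6% of the members' UMIs in DEHP_MLT and 18.5% in MLT, mitochondrial genes 8.78% and 7.23%, haemoglobin genes 1.49% and 0.196%, and Malat1, a nuclear RNA, 1.07% and 2.29%. With median-ratio scaling 110 genes were higher and 102 lower, of 3382 that reached 50 CPM. With totals that leave out mitochondrial, ribosomal protein and haemoglobin genes 108 were higher and 174 lower, of 4829. Median-ratio scaling lowered the MLT levels before the 50 CPM floor was applied, so some genes left the comparison. All single-gene ratios below are on the first scale.

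**Figure D3:**
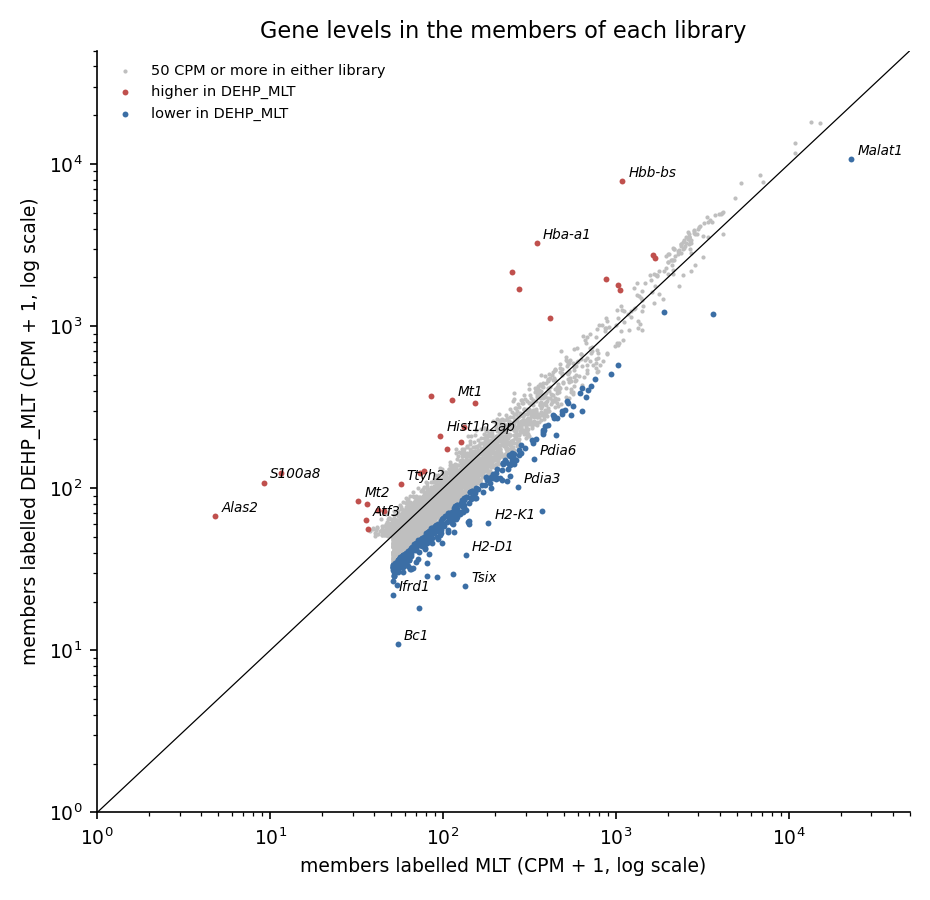
Gene levels in the summed members labelled DEHP_MLT (vertical) against MLT (horizontal), CPM plus 1 on log axes, for genes at 50 CPM or more in either library; coloured points are apart and the line marks equal levels. The main cloud lies slightly below the line in its middle and above it for the abundant ribosomal protein genes, and haemoglobin genes lie far above it.

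Of the 15 granulosa and gonadal transcription factors at 50 CPM or more, none was apart between the libraries, and the median log2 ratio of the 19 at 10 CPM or more was -0.18, beside -0.16 for all genes. Since 8.5% of all genes were lower and 0.798% higher, lists with 0 or 1 genes apart are not read as a result. Foxl2 had a ratio of 0.16, Nr5a2 of -0.07, Wt1 of -0.01 and Gata4 of 0.00. Of 8 activin, inhibin and AMH genes 1 was lower, the inhibitory Smad7 (-0.67), and it was not apart with median-ratio scaling. None of the 10 Wnt genes, 7 IGF genes, 8 imprinted genes or 4 genes of Kit ligand and gap junctions was apart, with Kitl at 358 CPM in DEHP_MLT and 441 CPM in MLT. In steroidogenesis 1 of 5 was lower, Hsd17b4 (-0.78). With median-ratio scaling the Hsd17b4 ratio was -0.60, still past 1.5-fold, but its level fell below the 50 CPM floor. It was apart with totals without mitochondrial, ribosomal protein and haemoglobin genes (-0.62). Of the 3 basement membrane genes that were lower among 9, Lamb1, Nid1 and Itgb1, none was apart with median-ratio scaling, and Lamb1 (-0.59) and Nid1 (-0.60) were apart with those other totals. Of 10 genes listed for epithelial pregranulosa cells, the retinaldehyde dehydrogenase Aldh1a1 alone was apart, at 401 CPM in DEHP_MLT and 689 CPM in MLT.

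Higher in DEHP_MLT were Id2 and Id3, inhibitors of differentiation, and the metallothioneins. Id2 stood at 78.8 CPM in DEHP_MLT (73.5 to 84.3) and 35.3 CPM in MLT (32.2 to 38.7), a log2 ratio of 1.13, and Id3 at 238 CPM (228 to 247) and 132 CPM (126 to 138), a ratio of 0.84. These were 2 of 7 genes of the BMP list, beside 0.798% of all genes, and none was lower. Id1, at 173 CPM in DEHP_MLT and 132 CPM in MLT (0.39), was not apart. The same ratios were 0.91 and 1.67 in epithelial pregranulosa cells and 0.77 and 1.35 in stroma. Mt1, a metallothionein that binds zinc and is induced by metals and glucocorticoids, stood at 349 CPM in DEHP_MLT and 111 CPM in MLT (1.64), and Mt2 at 82.6 and 31.3 CPM (1.37). Gpx1, a glutathione peroxidase, stood at 335 and 151 CPM (1.14). These 3 were higher and Txnrd1 (-0.89) lower among 18 antioxidant genes, beside 0.798% of all genes higher and 8.5% lower. Erythroid barcodes of DEHP_MLT, which were 693 against 50 in MLT, held Gpx1 at 5067 CPM and Mt1 at 1904 CPM. Surface epithelium held more Mt1, at 3155 CPM in DEHP_MLT and 2125 CPM in MLT, and Mt2 at 848 and 713 CPM. That class was 8.18% of barcodes with 5000 or more UMIs in DEHP_MLT and 5.27% in MLT. The 5 genes Id2, Id3, Mt1, Mt2 and Gpx1 remained apart with barcodes rich in other types' markers left out. Unthinned, Hba-a1 was found in 100% of members in DEHP_MLT and 77.9% in MLT, so that step left red cell RNA in the members. The parts of red cell RNA and of surface epithelium RNA in the members' values were not tested.

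Some of the other high ratios need care. Alas2, the haem synthesis gene of red cells, and the neutrophil genes S100a8 and S100a9 had the highest log2 ratios, 3.80, 3.56 and 3.41. Of 356 members in DEHP_MLT, 2 held at least 50% of the S100a8 UMIs. S100a8 was still found in 60.4% of members in DEHP_MLT and 17.5% in MLT, unthinned, and its ratio in stroma was 3.94. None of these 3 genes was apart once barcodes with markers of other types were left out. A gene under 50 CPM in both libraries is not called apart whatever its ratio. Hist1h2ap (1.13) lies in a histone family whose members share sequence, so its level is uncertain. Ttyh2, a chloride channel relative, stood at 105 CPM in DEHP_MLT and 55.8 CPM in MLT (0.91), and Atf3, a stress-induced transcription factor, at 62.6 and 34.9 CPM (0.82).

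Lower in DEHP_MLT were genes of protein folding in the endoplasmic reticulum. Of 12 such genes 7 were lower, beside 8.5% of all genes, and none higher, and the median log2 ratio of the 17 at 10 CPM or more was -0.41. Pdia3, a disulfide isomerase that also serves MHC class I loading, stood at 100.4 CPM in DEHP_MLT (94.5 to 107) and 270 CPM in MLT (261 to 279), a ratio of -1.42. Pdia6 stood at 150 and 333 CPM (-1.15), Hsp90b1 at 365 and 667 CPM (-0.87), and Hspa5, the BiP chaperone, at 319 and 560 CPM (-0.81). Pdia4, Dnajc3 and Dnajb11 were the others, and Dnajb11 was not apart with median-ratio scaling. P4hb, another isomerase, was not apart at 234 and 176 CPM (0.41). In stroma Pdia3 and Pdia6 had ratios of -0.81 and -0.63, and in surface epithelium -1.06 and -0.94.

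MHC class I genes were lower as well. H2-K1 stood at 59.7 CPM in DEHP_MLT (55.1 to 64.5) and 181 CPM in MLT (174 to 189), a log2 ratio of -1.59, and H2-D1 at 37.7 and 134 CPM (-1.80). B2m, their shared light chain, stood at 113 and 202 CPM (-0.83). These were 3 of 6 genes, beside 8.5% of all genes, with none higher, and the median of 10 genes was -0.96. H2-K1 was found in 27.5% of thinned members in DEHP_MLT and 52.4% in MLT, against 23.8% and 37.1% of endothelial barcodes. The ratio of H2-K1 was -0.97 in epithelial cells and -2.09 in stroma. Cells above the class II limit held H2-K1 at 1768 CPM in MLT, so the limit also lowers the MLT value, and members in MLT still held H2-Aa, a gene of the rule, at 26.6 CPM, against 1.05 CPM in DEHP_MLT.

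**Figure D4:**
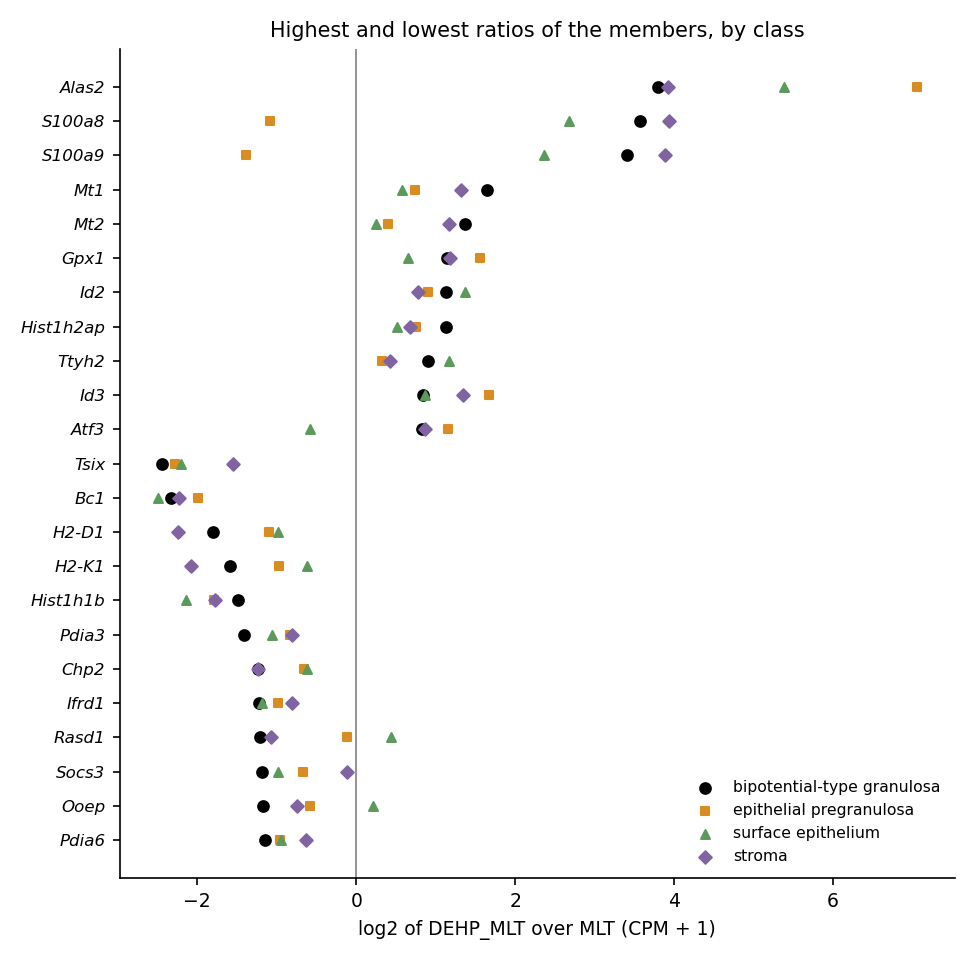
Log2 ratio of DEHP_MLT over MLT (CPM plus 1) of the genes named for the highest and lowest ratios in the members, with the same ratio in epithelial pregranulosa cells, surface epithelium and stroma. Most genes lie on the same side of 0 in all 4 classes; S100a8 and S100a9 in epithelial cells, Atf3, Rasd1 and Ooep in surface epithelium do not.

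Most of the genes named leaned the same way in other classes. Exceptions were S100a8 and S100a9 in epithelial cells (-1.09 and -1.39) and, in surface epithelium, Atf3 (-0.59), Rasd1 (0.44) and Ooep (0.20). Rasd1, a glucocorticoid-induced small GTPase, stood at 33.6 CPM in the members of DEHP_MLT and 79.4 CPM in those of MLT (-1.22), and at 5.72 and 6.29 CPM in epithelial cells. Chp2, a calcineurin-like protein, stood at 58.8 and 140 CPM (-1.23) in the members, and at 22.9 and 36.8 CPM in epithelial cells. Socs3, a brake on cytokine signalling, stood at 61.6 and 141 CPM (-1.18). Ooep, an oocyte gene, stood at 60.7 and 139 CPM (-1.18), beside 52.0 and 87.9 CPM in stroma, which is not known to make it. Tsix (-2.44) runs antisense to Xist, and the sources used here do not say whether counting used strand. The noncoding RNA Bc1 (-2.33), the linker histone gene Hist1h1b (-1.48) and Ifrd1 (-1.22) completed the 12 lowest. With median-ratio scaling Bc1 (-2.15) and Ifrd1 (-1.04) kept ratios past 1.5-fold, but their levels fell below the 50 CPM floor. Both were apart with the other totals (-2.20 and -1.07).

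Of the Notch list, 1 of 3 genes was higher and 1 lower, beside 0.798% and 8.5% of all genes, and with so few genes no result is read. Hes1 stood at 212 CPM in DEHP_MLT and 452 CPM in MLT (-1.09) and Notch2, a receptor of granulosa cells for signals of the oocyte, at 55.1 and 35.9 CPM (0.61), with Rbpj, the third Notch gene at 50 CPM, not apart (-0.49). Cdkn1b, the p27 cell cycle inhibitor, stood at 284 and 549 CPM (-0.95), the only one of 6 cyclin D and inhibitor genes apart. Of 19 immediate-early genes, which rise within minutes of tissue handling, Atf3 and Dusp1 were higher and Fosb, Junb, Nr4a1 and Btg2 lower. These were 2 and 4 genes, beside 0.798% of all genes higher and 8.5% lower. Only Atf3, Dusp1 and Btg2 of them were apart with median-ratio scaling. Atf3 was not apart with equal weight per cell or with no limit on MHC class II. Nor was it with members above 2.5 times the median UMIs left out. Glycolysis had 1 of 11 apart, Ldhb (-0.83), the PPAR and lipid list 1 of 7, Acaa2 (-0.70, not apart with either other scaling), and the cholesterol list 0 of 3. Of 3 interferon-induced genes at 50 CPM, the chemokine gene Cxcl10 was lower (-0.94). With median-ratio scaling its ratio was -0.77, but its level fell below the 50 CPM floor. With the other totals it was apart at -0.79. Of 2 DNA replication genes at 50 CPM none was apart.

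Receptors for the hormones and agents of this design were mostly weak in the members. Of 3 receptor genes at 50 CPM, Igf1r and Esr2 among them, none was apart. Igf1r stood at 149 CPM in DEHP_MLT and 152 CPM in MLT, and Esr2 at 68.2 CPM in DEHP_MLT and 79.8 CPM in MLT. Mtnr1b, a melatonin receptor gene, had 0 UMIs in DEHP_MLT, where 3 UMIs would be 0.286 CPM, and 2 UMIs in MLT. Of the peroxisome proliferator receptors, through which phthalate metabolites are known to act, Ppara stood at 3.82 and 4.50 CPM, Ppard at 8.31 and 6.49 CPM and Pparg at 0.382 and 0.305 CPM. The intervals of each of these 3 overlapped between the libraries, so a difference was not detectable at this depth.

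Dividing cells were compared by the share of members with at least 2 UMIs of 18 mitosis genes after thinning to 5000 UMIs. It was 40.4% in DEHP_MLT (35.3% to 45.7%) and 44.1% in MLT (39.7% to 48.5%), with overlapping intervals. With at least 3 UMIs it was 20.5% (16.4% to 25.1%) and 29.1% (25.2% to 33.3%), without overlap. For the DNA replication list at 2 UMIs it was 52.5% in DEHP_MLT (47.2% to 57.8%) and 64.5% in MLT (60.2% to 68.6%), also without overlap, and 55.4% and 72.4% of endothelial barcodes. The unthinned mitosis shares were 86.0% and 86.4%. The list summed to 372 CPM in the members of DEHP_MLT and 475 CPM in those of MLT. Of its 4 genes at 50 CPM, 2 were lower, Top2a (-0.79) and Cenpf (-0.86), beside 8.5% of all genes, and none was higher. The list did not lean 1 way. In members outside the Amh subset Ube2c stood at 108 CPM in DEHP_MLT and 78.0 CPM in MLT, and Birc5 at 52.6 and 59.6 CPM. With median-ratio scaling the Cenpf ratio was -0.68, but its level fell below the 50 CPM floor. Germ barcodes held 2719 and 3046 CPM and erythroid barcodes 4286 and 922 CPM of the same list, so free RNA can add to these shares, and its part was not tested. Endothelial barcodes passed at 51.5% and 61.0% for mitosis at 2 UMIs. No cycling is read from these calls alone.

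**Figure D5:**
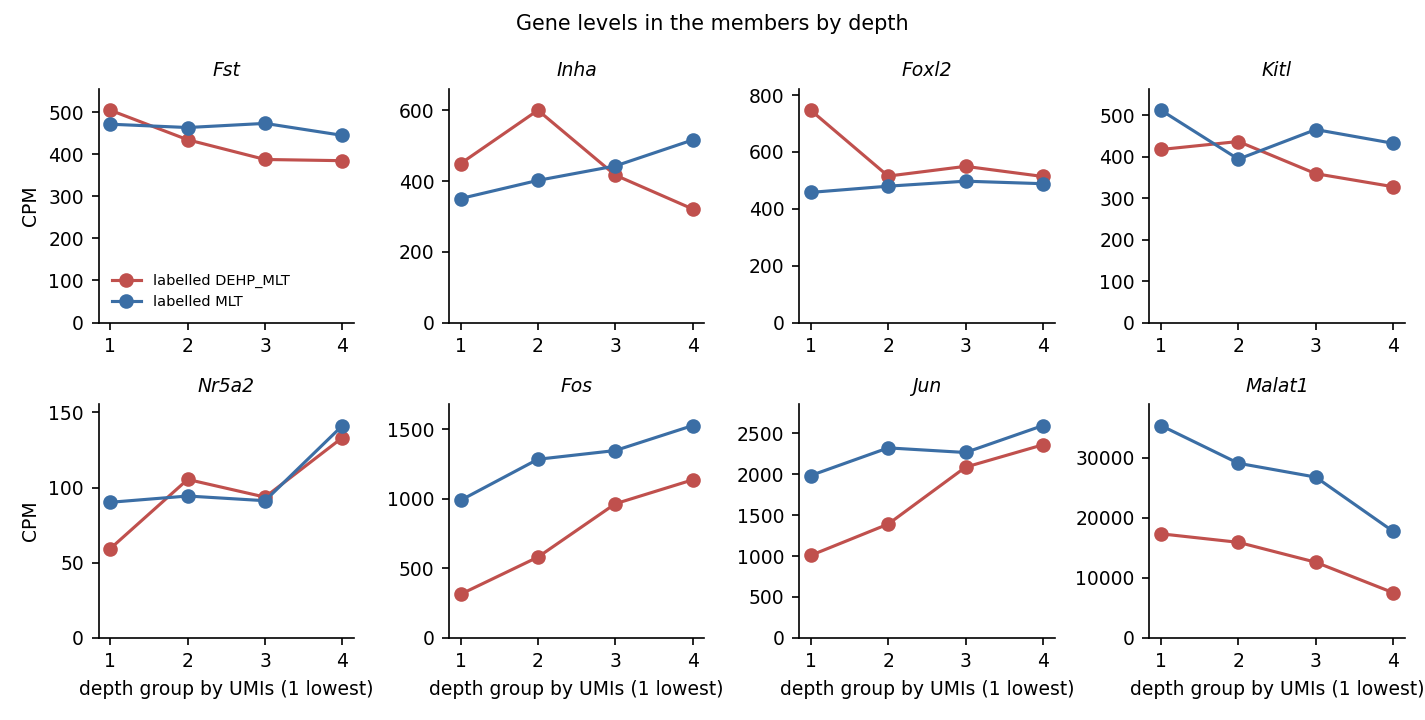
Level (CPM, linear axes from 0) of 8 genes in the members of each library, split into 4 groups of near-equal size by UMIs per member, lowest first. Fos and Jun were higher and Malat1 lower in deeper members of both libraries, and Fst, Foxl2 and Kitl changed less.

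Some genes differed with depth within the members, and why they did was not tested. From the shallowest to the deepest of 4 groups of near-equal size, Fos stood at 313, 580, 964 and 1136 CPM in DEHP_MLT and at 989, 1284, 1347 and 1526 CPM in MLT. Malat1 stood at 17345, 15925, 12606 and 7527 CPM in DEHP_MLT and at 35397, 29110, 26801 and 17755 CPM in MLT. Nr5a2 stood at 59.3 CPM in the shallowest and 133 CPM in the deepest group of DEHP_MLT, and at 90.2 and 141 CPM in those of MLT. Id3 stayed within 227 to 256 CPM across the depth groups of DEHP_MLT and within 124 to 168 CPM in MLT, so each depth group in DEHP_MLT was above each in MLT. H2-K1 stayed within 52.3 to 85.6 CPM and 163 to 220 CPM, likewise without overlap.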

How the data were processed

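Per the labels, ovarian cells of 1 library per group were read with the 10x Genomics 3′ kit. Per the submitters' processing notes, Cell Ranger, with no version given, and Seurat 4.2.0 were used, with mm9 named as build. The authors deposited whole-number UMI counts per gene and barcode, not normalized, and 21018 genes present in both tables were used. Of these symbols 98.2% were found in GENCODE vM21.

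The members, the comparison classes and the 37 gene lists were chosen with earlier results of these data known. UMIs were summed over the barcodes of a class and divided by the class total, giving CPM with exact Poisson intervals. Ratios are log2 of DEHP_MLT over MLT, or of members over another class, after adding 1 CPM, so large ratios of weak genes are understated. Shares have exact Clopper-Pearson intervals. UMIs of a 3′ assay do not scale with transcript length, but capture differs between genes, so levels are compared within a gene. Only the calling of genes as apart was checked on simulated counts. These were Poisson sums with known changes and held no spread between cells.

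Genes were named by fixed rules: the 12 highest and 12 lowest ratios between libraries and the 10 highest and 10 lowest over epithelial cells, without rule, mitochondrial, ribosomal protein, haemoglobin and unnamed genes. In addition came list members past 1.5-fold, the 4 most abundant of each list, and the 8 most like the marker sum. Some genes that these rules name are not reported here. Genes of the Amh subset, of the MHC class II-high comparison and of the depth groups were picked after their values were seen. The software was pandas 2.3.3, numpy 2.4.6 and scipy 1.17.1 under Python 3.11.15, with figures from matplotlib 3.10.9.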

Additional observations from a re-analysis of the deposited data

How the results depend on the processing

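No paired analysis was possible and no replicate could be left out, because each group is 1 library. The member share stayed lower in DEHP_MLT than in MLT under each alternative run. In DEHP_MLT it was 5.60% with a marker sum of at least 8, 8.57% with at least 3, 6.39% with the rule applied after thinning, 6.16% without Aard and 8.26% without erythroid barcodes. In MLT it was 8.95%, 15.3%, 9.82% and 9.78% under the first 4 of these, and 14.3% with no limit on MHC class II.

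Genes higher in DEHP_MLT numbered 45 with thinning, 48 with equal weight per cell, 110 with median-ratio scaling, 108 with totals without mitochondrial, ribosomal protein and haemoglobin genes, 62 from 20 CPM and 208 with no filter, against 29. Genes lower numbered 200 with a pseudocount of 10 CPM, 102 with median-ratio scaling, 174 with those totals, 603 from 20 CPM and 1139 with no filter, against 309. Lower floors admit more genes, and the cause of the other shifts was not tested. Of the 24 named genes, 20 to 24 were apart under each alternative. S100a9 reversed, to -0.0038 at a marker sum of at least 3. Over epithelial cells, 451 genes were higher and 368 lower from 20 CPM. The mitosis share was 20.5% and 29.1% at 3 UMIs, and 86.0% and 86.4% unthinned, in DEHP_MLT and MLT. With 1 library per group, depth within a library does not stand in for replicates.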
